A study of Mus musculus with 2 samples.

Results

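The calcium pumps of muscle and the proteins that store, release and buffer calcium beside them were followed in long-read RNA libraries of the mouse adrenal gland. The set holds 8 genes of the 18179 annotated genes with at least 1 read: Atp2a1, Atp2a2, Sln, Casq1, Pvalb, Ryr1, Ckm and Bin1. They were chosen by gene name with their read counts known, so their levels and their ratios between libraries are given as a description, without a test. The series holds 2 libraries, labelled biological replicates 1 and 2, of adrenal gland tissue from female B6CASTF1/J mice aged 10 days. These mice are hybrids of C57BL/6J and CAST parents, and their reads were placed on the mm10 assembly. The labels give 1 group and name no treatment, so the only comparison is replicate 1 against replicate 2. The sample texts number the animals differently, while the library texts name the same animal for both. Whether the libraries came from separate animals is therefore not settled, and the spread between them may be technical.

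In muscle fibres calcium is released from the sarcoplasmic reticulum through the ryanodine receptor, and contraction ends when SERCA pumps return it to the store. Atp2a1 encodes SERCA1, the pump of fast skeletal fibres, and Atp2a2 encodes SERCA2, made in slow fibres and heart in a short form and in nearly all other cells in a longer form. Sarcolipin (Sln) is a small membrane protein that inhibits SERCA, calsequestrin-1 (Casq1) holds calcium inside the store, parvalbumin (Pvalb) buffers it in the cytosol of fast fibres, and Ryr1 is the release channel of skeletal muscle. Ckm is the cytosolic creatine kinase of muscle, which regenerates ATP, and Bin1 shapes membranes and, in muscle, the transverse tubules.

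Replicate 1 held 593165 reads and replicate 2 held 772154 reads outside the spike-ins. A gene without reads could lie below 5.06 CPM in replicate 1 and below 3.89 CPM in replicate 2, the limit that 3 counts set. CPM is the read count of a gene scaled to the same total in every library. All 10 genes of a steroidogenic list had reads in both libraries, as Cyp11a1, the enzyme that opens steroid synthesis, did with 6776 CPM in replicate 1 against 8654 CPM in replicate 2. Transcripts of other tissues were present too. Skeletal muscle genes (18 listed) summed to 10634 CPM in replicate 1 against 3462 CPM in replicate 2. Liver genes (6) summed to 7949 CPM in replicate 1 against 1283 CPM in replicate 2, and brown fat genes (8) to 11223 CPM in replicate 1 against 16933 CPM in replicate 2. Kidney genes (6) had 0 reads in replicate 1 and summed to 653 CPM in replicate 2. All intervals are 95% intervals that cover counting error only.

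All 8 genes were read in both adrenal libraries. Atp2a1 and Ckm stood far above the others, at ranks 44 and 56 of the 18179 genes by mean CPM. Each long read was counted once whatever its length, so the levels were not divided by length, although a transcript as long as that of Ryr1 is less likely to be read whole. Atp2a1 had 1444 reads in replicate 1 and 864 in replicate 2, a level of 2434 CPM (2310.4 to 2563) in replicate 1 against 1119 CPM (1046 to 1196) in replicate 2. Its mean was 1777 ± 930.2 CPM (SD, n = 2), and the level was 2.18-fold (2.00 to 2.37) higher in replicate 1. Ckm had 1128 reads (1902 CPM) in replicate 1 against 768 reads (995 CPM) in replicate 2, with a ratio of 1.91 (1.74 to 2.10) and a mean of 1448 ± 641 CPM. The interval of Ckm lay below that of Atp2a1 in replicate 1 (1792 to 2016 CPM) and overlapped it in replicate 2 (926 to 1068 CPM).

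By mean CPM the next was Casq1, the calcium-binding protein of the store. It had 133 reads (224 CPM) in replicate 1 and 86 reads (111 CPM) in replicate 2, a ratio of 2.01 (1.52 to 2.67). Atp2a2 had 88 reads (148 CPM) in replicate 1 and 91 reads (118 CPM) in replicate 2, and its ratio of 1.26 had an interval that included equality (0.928 to 1.71). Bin1 had 84 reads (142 CPM) in replicate 1 against 65 reads (84.2 CPM) in replicate 2, a ratio of 1.68 (1.20 to 2.36). The levels of Atp2a2 and Bin1 overlapped in their intervals in both libraries (119 to 183 and 113 to 175 CPM in replicate 1, 94.9 to 145 and 65.0 to 107 CPM in replicate 2), so their order is not resolved. In replicate 2 the interval of Casq1 (89.1 to 138 CPM) overlapped both as well, and Atp2a2 had more reads than Casq1.

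Sarcolipin and the release channel differed most between the libraries. Sln had 93 reads in replicate 1, a level of 157 CPM (127 to 192), and 3 reads in replicate 2, a level of 3.89 CPM (0.801 to 11.4). The ratio was 40.4 with an interval of 13.4 to 199, at the 99.9th percentile of all genes. In replicate 1 the level of Sln was close to that of Atp2a2, and in replicate 2 it was at the detection limit. All Sln reads of both libraries fell on the annotated 2-exon transcript. The coding sequence that these reads cover, printed because it is the whole of this 31-codon inhibitor, lies in a single exon on the plus strand at chr9:53853473-53853568 (mm10, GENCODE M21 transcript sequence).
Sln, coding sequence: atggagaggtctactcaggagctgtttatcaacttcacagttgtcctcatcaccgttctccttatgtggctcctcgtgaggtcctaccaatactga

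Ryr1 had 26 reads (43.8 CPM, 28.6 to 64.2) in replicate 1 and 4 reads (5.18 CPM, 1.41 to 13.3) in replicate 2, a ratio of 8.46 (2.94 to 33.4). Every Ryr1 read came from the 3' part of the gene. The longest Ryr1 model was 6570 bases in replicate 1 and 3116 bases in replicate 2, against 15358 bases for the longest annotated coding transcript. Pvalb had 22 reads (37.1 CPM, 23.2 to 56.2) in replicate 1 and 36 reads (46.6 CPM, 32.7 to 64.5) in replicate 2. It was the only one of the 8 genes with a lower level in replicate 1, at a ratio of 0.796 whose interval included equality (0.446 to 1.39).

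**Figure D1:**
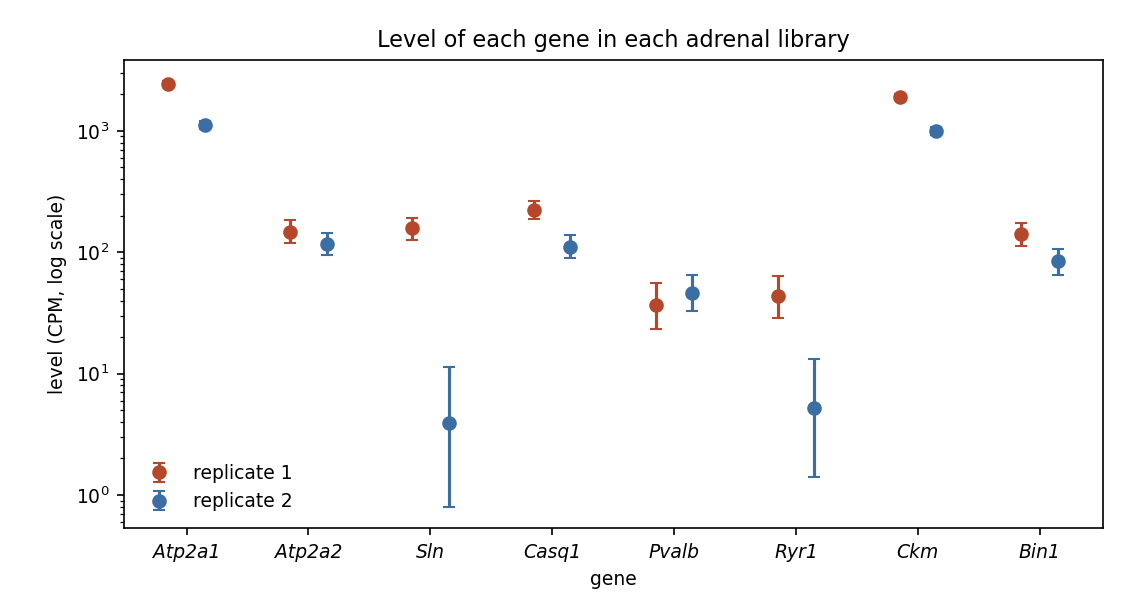
Level of each gene (CPM, log scale) in replicate 1 (red, left point of each pair) and replicate 2 (blue, right point), with exact Poisson intervals of the counts as error bars. Sln and Ryr1 lie furthest apart (157 CPM in replicate 1 against 3.89 CPM in replicate 2 for Sln, and 43.8 CPM in replicate 1 against 5.18 CPM in replicate 2 for Ryr1), and Atp2a1 and Ckm are the highest genes in both libraries.

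Of the 8 genes, 4 (Atp2a1, Sln, Casq1 and Ryr1) were at least 2-fold higher in replicate 1, and 0 were at least 2-fold higher in replicate 2. Of the 10567 genes with 10 or more reads summed, 9.45% were at least 2-fold higher in replicate 1 and 4.09% in replicate 2. The count of 4 became 6 (with Ckm and Bin1) when reads of the steroidogenic list served as the total, and 2 (Sln and Ryr1) with skeletal muscle reads as the total. With that muscle total, 2 genes (Atp2a2 and Pvalb) were at least 2-fold higher in replicate 2. The set was chosen with these counts known, so nothing is read from its share. The median log2 ratio of the 8 genes was 0.97, against 0.04 for all genes (5th to 95th percentile −0.92 to 1.43). In tissue RNA, fewer muscle cells and less RNA per muscle cell cannot be told apart.

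Most muscle structural genes were also at least 2-fold higher in replicate 1. Of the 18 skeletal muscle genes, 13 were at least 2-fold higher in replicate 1 and 0 in replicate 2 (median log2 ratio 1.75). The summed level was 3.07-fold (2.94 to 3.22) higher in replicate 1. Acta1, skeletal muscle actin, had 4908 CPM in replicate 1 against 1263 CPM in replicate 2, and Tnnc2, the fast troponin C, had 1579.7 CPM in replicate 1 against 554 CPM in replicate 2. Mylpf, a fast myosin light chain, had 1047 CPM in replicate 1 against 537 CPM in replicate 2. The 8 genes of a heart list together had 12 reads in replicate 1, against 4 reads in replicate 2. Most were reads of Myl4, with 11 in replicate 1 against 3 in replicate 2. Tnnt2 had 1 read, in replicate 1, and Ankrd1 had 1 read, in replicate 2. The others (Nppa, Myl7, Myh6, Tnni3 and Mybpc3) had 0 reads in both libraries. The part of muscle RNA in the ratios of the set was not tested, but the ratios could be set against it.

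With the reads of the 18 muscle genes as the total in place of all reads, the set divided. The log2 ratio became −0.50 for Atp2a1, −0.61 for Casq1, −0.68 for Ckm, −0.87 for Bin1, −1.29 for Atp2a2 and −1.94 for Pvalb, so that these 6 genes were lower in replicate 1 per muscle read. Sln and Ryr1 stayed higher in replicate 1, at log2 ratios of 3.50 and 1.32. On all reads the same values were 1.12 for Atp2a1, 1.01 for Casq1, 0.93 for Ckm, 0.75 for Bin1, 0.33 for Atp2a2, −0.32 for Pvalb, 5.12 for Sln and 2.94 for Ryr1. The values per muscle read depend on the genes in that total. Acta1 alone gave 2911 of its 6308 reads in replicate 1 and 975 of 2673 in replicate 2. The muscle genes differed in their own CPM ratios, replicate 1 over replicate 2, as with 0.620 for Mybpc2, 1.95 for Mylpf, 2.09 for Myl1, 3.89 for Acta1 and 19.9 for Mybpc1.

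The myosin heavy chains, which mark fibre types, did not share a single ratio. Myh1 (fast) had 859.8 CPM in replicate 1 against 60.9 CPM in replicate 2, and Myh2 (fast oxidative) had 175 CPM in replicate 1 against 5.18 CPM in replicate 2. Myh8, the perinatal form, had 139.9 CPM in replicate 1 against 7.77 CPM in replicate 2, and Myh7, the slow form, had 128 CPM (76 reads) in replicate 1 and 0 reads in replicate 2. Myh4, the form of the fastest fibres, ran the other way with 8.43 CPM in replicate 1 against 190.4 CPM in replicate 2. These genes were chosen as fibre markers, and their part in the exon choices described next was not tested.

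**Figure D2:**
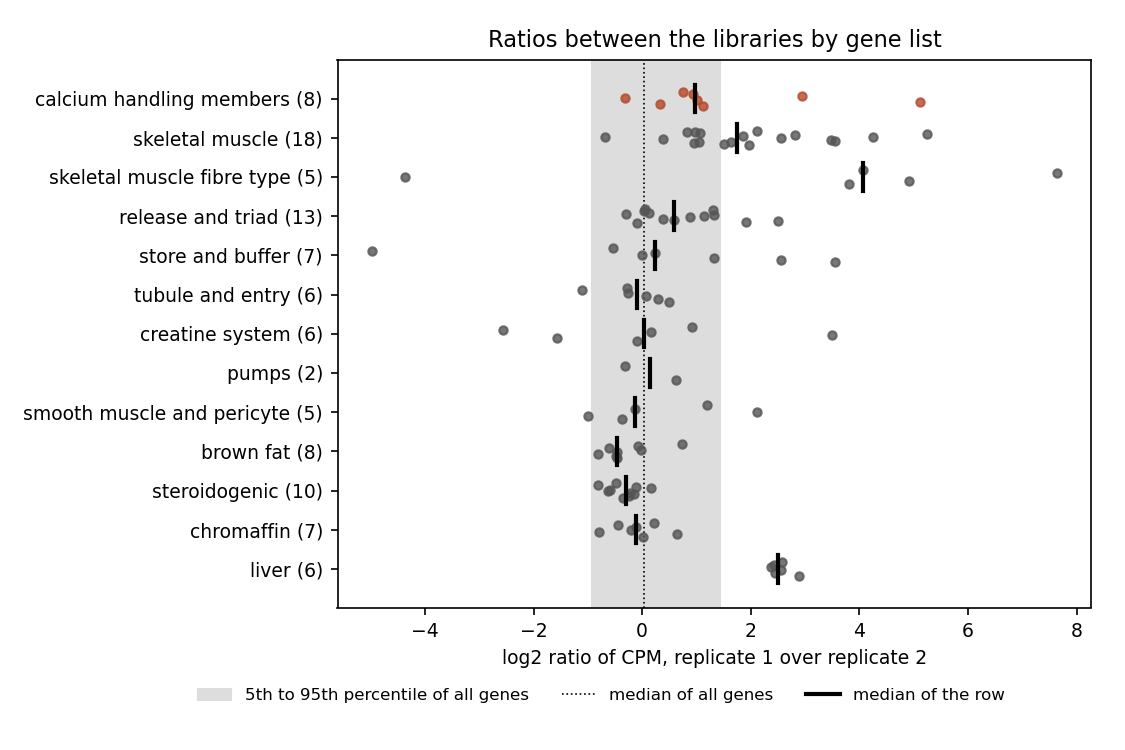
Log2 ratio of CPM (replicate 1 over replicate 2, 0.5 reads added to each count) for the 8 calcium-handling genes (top row, red) and for genes of each list with 10 or more reads (grey, their number in brackets), with row medians as black bars and the 5th to 95th percentile of all genes shaded. The 8 genes centre on 0.97 and the skeletal muscle genes on 1.75, and steroidogenic and chromaffin genes lie near the median of all genes.

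SERCA1 is known in an adult form that includes a short exon near the 3' end and a neonatal form that skips it. The 42-base exon lies at chr7:126446545-126446586 on the minus strand, between introns of 284 and 418 bases. Its inclusion brings a stop codon after 1 further codon, and skipping it leaves 8 further codons in the last exon. The annotated protein of the included form has 994 codons. The sequences across the choice are shown because these few bases are all that separates the coding sequences of the adult and the neonatal form. The lower-case letters are the last 30 bases of the shared exon and the capitals are the coding bases after the choice, stop codon included (GENCODE M21 transcripts, mm10, minus strand, chr7:126446582-126446900 for the included form and chr7:126446101-126446900 for the skipped form).
Atp2a1, exon included: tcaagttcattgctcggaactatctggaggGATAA
Atp2a1, exon skipped: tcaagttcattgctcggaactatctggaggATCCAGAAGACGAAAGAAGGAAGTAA

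Both forms were present in both libraries, and the neonatal form took a larger share in replicate 1. Of the 1433 Atp2a1 reads of replicate 1 that spanned the choice, 924 included the exon (64.5%, 61.9 to 67.0). Of the 855 such reads of replicate 2, 780 included it (91.2%, 89.1 to 93.0). The exon was skipped in 410 reads of replicate 1 (28.6%, 26.3 to 31.0) and in 55 reads of replicate 2 (6.43%, 4.88 to 8.29), a difference of 22.2 percentage points (19.2 to 25.0). Inclusion averaged 77.9% ± 18.9 (SD, n = 2).

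Expressed as levels, the skipped form was at 691 CPM in replicate 1 against 71.2 CPM in replicate 2, a ratio of 9.70 (7.31 to 13.1). The included form was at 1558 CPM in replicate 1 against 1010.2 CPM in replicate 2, a ratio of 1.54 (1.40 to 1.70). The included form was therefore below 2-fold, and the neonatal form carried the larger ratio. Reads that kept the last intron, downstream of the short exon, made up 5.65% (81 reads) in replicate 1 and 1.99% (17 reads) in replicate 2. They end in the same stop codon as the included form, since that codon lies within the short exon. Counting them, and the reads that kept both introns, as included gave 70.8% in replicate 1 and 93.5% in replicate 2. Both introns were kept in 10 reads of replicate 1 and 2 of replicate 2, and 8 reads of replicate 1 and 1 of replicate 2 had another structure.

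**Figure D3:**
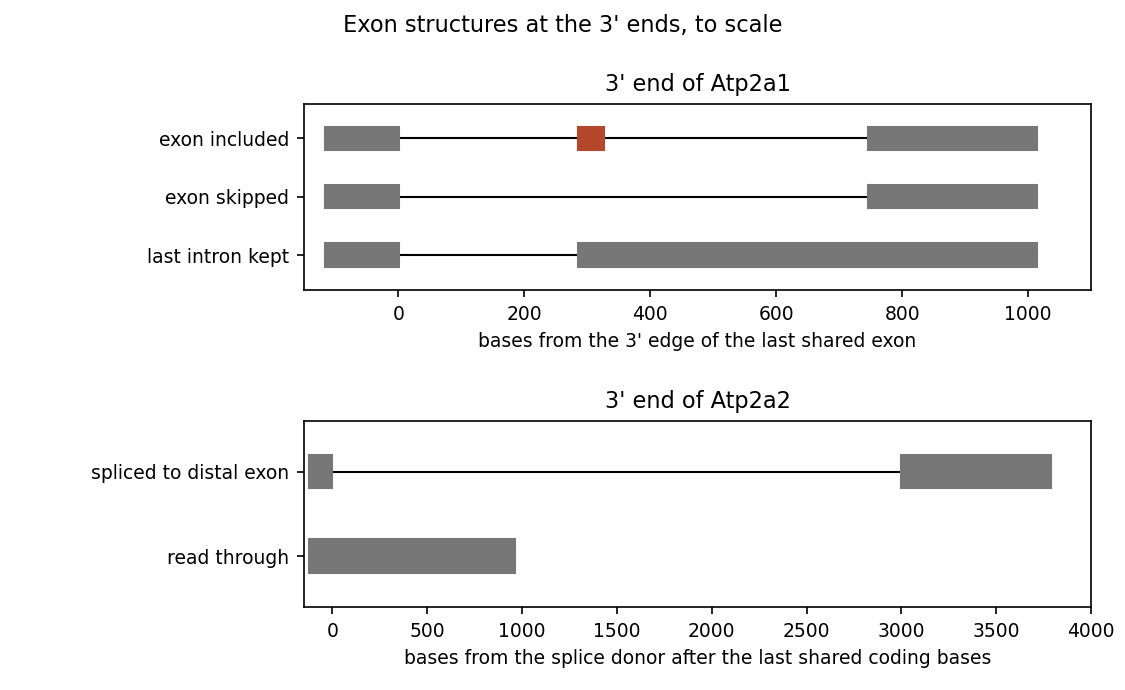
Exon structures at the 3' ends of Atp2a1 (top) and Atp2a2 (bottom), drawn to scale in bases along the transcript direction, with boxes for exons and lines for introns. The 42-base exon of Atp2a1 (red) is included, skipped or joined to the last exon, and Atp2a2 is either spliced over 2998 bases to a distal exon or read through.

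Atp2a1 was almost wholly read on models outside the annotation. Of its reads, 1442 of 1444 in replicate 1 (99.9%) and all 864 in replicate 2 lay on models that are not annotated transcripts, and 0 lay on the annotated 23-exon transcript. The main model had 22 exons and 3485 bases and held 844 reads in replicate 1 and 727 in replicate 2. The next, with 21 exons and 3443 bases, skipped the 42-base exon and held 382 reads in replicate 1 against 48 in replicate 2. Another, with 21 exons and 3903 bases, kept the last intron and held 70 reads in replicate 1 against 17 in replicate 2. No other Atp2a1 model had more than 11 reads in a library. Of the smaller ones, an 8-exon model with 8 reads in replicate 1 and 9 in replicate 2 ended within an intron, and most others with 3 or more reads were 5' shortened copies of the same exon chain. Reads from the first to the last exon made up 92.9% in replicate 1 and 94.7% in replicate 2.

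Apart from the kept introns at the 3' end, the main models departed from the annotation at the second exon. The annotated second exon of 18 bases (chr7:126462500-126462517) was in 0 of 1350 spanning reads of replicate 1 and 0 of 827 of replicate 2, which allows shares of up to 0.222% in replicate 1 and 0.363% in replicate 2 (3 counts). In its place the first exon carried 26 further bases (chr7:126462779-126462804) in 1345 reads of replicate 1 (99.6%) and 823 reads of replicate 2 (99.5%). The exchange adds 8 bases, the difference in length between the main model and the annotated 3477-base transcript, and 8 is not a multiple of the codon length of 3. In Atp2a2 the exon at the same place, also of 18 bases, was included in 60 of 68 spanning reads of replicate 1 (88.2%) and 80 of 83 of replicate 2 (96.4%). The exons are shown because they are equal in length and match at 13 of 18 positions, yet the models treat them differently (minus strand, chr7:126462500-126462517 and chr5:122500931-122500948, whole exons in lower case).
Atp2a1, second exon: agctccctgctgaggaag
Atp2a2, second exon: aattgccggctgaagaag

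Exons of this length were often missing from the models. Of 27 annotated 18-base internal exons with 10 or more spanning reads in each library, 16 were in no read and 4 were in over 90% of reads. The 27 exons were not limited to those that every transcript of their gene includes. No other exon length was compared, so a part of exon length was not tested. Whether the aligner placed the bases of the Atp2a1 exon in the intron was not tested. The class given to a structure also differed between the libraries. The 22-exon model was classed as a new combination of known splice sites in replicate 1 and as carrying a new splice site in replicate 2, and the 21-exon model the reverse, so the deposited classes of Atp2a1 cannot be compared between libraries.

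For SERCA2 the choice is between splicing and reading through. In the muscle form, SERCA2a, the last shared coding bases are spliced over 2998 bases to a distal exon. In the widespread form, SERCA2b, the splice donor is not used and the exon runs on to a proximal end. The spliced form adds 4 codons (998 in all) and the read-through form adds 50 (1044 in all). The sequences are shown because they encode the alternative C-terminal ends, with the last 30 shared bases in lower case and the bases after the choice in capitals, stop codon included (GENCODE M21, mm10, minus strand, chr5:122454291-122457332 and chr5:122457151-122457332).
Atp2a2, spliced to the distal exon: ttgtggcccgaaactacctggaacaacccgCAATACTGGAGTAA
Atp2a2, read through: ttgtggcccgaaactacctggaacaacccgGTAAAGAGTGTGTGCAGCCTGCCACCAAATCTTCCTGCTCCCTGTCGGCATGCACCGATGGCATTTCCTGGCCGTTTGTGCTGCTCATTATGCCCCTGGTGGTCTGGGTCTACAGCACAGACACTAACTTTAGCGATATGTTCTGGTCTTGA

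The widespread form was the more frequent in both adrenal libraries, and the muscle form took a larger share in replicate 1. Of 82 spanning reads in replicate 1, 48 read through to the proximal end (58.5%, 47.1 to 69.3), against 72 of 88 in replicate 2 (81.8%, 72.2 to 89.2). The distal exon was used by 29 reads of replicate 1 (35.4%, 25.1 to 46.7) and 15 of replicate 2 (17.0%, 9.87 to 26.6), a difference of 18.3 percentage points (5.12 to 30.9). As levels, the muscle form was at 48.9 CPM in replicate 1 against 19.4 CPM in replicate 2, a ratio of 2.52 (1.31 to 5.05). The widespread form was at 80.9 CPM in replicate 1 against 93.2 CPM in replicate 2, with a ratio of 0.868 whose interval included equality (0.589 to 1.27). The remaining spanning reads, 5 of them in replicate 1 and 1 in replicate 2, read through and then were spliced or ran to the distal end.

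Unlike Atp2a1, Atp2a2 was mostly read on annotated transcripts. The annotated transcript of 20 exons with the proximal end held 29 reads in replicate 1 and 61 in replicate 2, and that of 21 exons with the distal exon held 23 in replicate 1 against 13 in replicate 2. Unannotated models held 38.6% of Atp2a2 reads (28.4 to 49.6) in replicate 1 and 16.5% (9.53 to 25.7) in replicate 2. The unannotated spliced Atp2a2 model with most reads had 19 exons and 4142 bases, ended at the proximal end and held 5 reads in replicate 1 and 3 in replicate 2. It was classed as an incomplete splice match in replicate 1 and as carrying a new splice site in replicate 2, so the unannotated classes of Atp2a2 cannot be compared between libraries either.

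Bin1 differed between the libraries in the exons its reads carried. An internal exon of 45 bases that the annotation lacks (chr18:32423242-32423286) was in 44 of 72 spanning reads of replicate 1 (61.1%, 48.9 to 72.4) and in 4 of 54 of replicate 2 (7.41%, 2.06 to 17.9). The difference was 53.7 percentage points (38.3 to 65.1), and reads with the exon were at 74.2 CPM in replicate 1 against 5.18 CPM in replicate 2. Muscle Bin1 is known to carry a muscle-specific exon that binds phosphoinositides, and whether the 45-base exon is that one was not tested. The exon was singled out after the values were seen.

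The 45-base exon and the 129-base exon downstream were not read together. All 44 reads of replicate 1 and all 4 of replicate 2 that carried the 45-base exon skipped the 129-base exon (chr18:32426224-32426352). That exon was in 4 of 72 spanning reads of replicate 1 (5.56%, 1.53 to 13.6) and 10 of 53 of replicate 2 (18.9%, 9.44 to 32.0), each time without the 45-base exon. The pattern was not particular to the 129-base exon. Annotated exons of 108, 24 and 108 bases further downstream were also skipped by all 44 and all 4 reads with the 45-base exon. These exons were rare, in 5.48%, 5.48% and 6.76% of spanning reads in replicate 1 and 5.66%, 5.66% and 7.41% in replicate 2. The 72-base exon further downstream (chr18:32431671-32431742) occurred both with and without the 45-base exon. Among reads with the 45-base exon, 24 included the 72-base exon and 19 skipped it in replicate 1, against 2 and 2 in replicate 2. Without the 45-base exon, 16 included it and 12 skipped it in replicate 1, against 23 and 27 in replicate 2.

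The leading Bin1 models followed that choice. The 15-exon and 14-exon models, both unannotated, held 20 and 18 reads in replicate 1 and 2 reads each in replicate 2. Of the annotated transcripts, that of 13 exons held 10 reads in replicate 1 and 23 in replicate 2, and that of 14 exons held 8 in replicate 1 against 13 in replicate 2. Unannotated models held 75.0% of Bin1 reads in replicate 1 (64.4 to 83.8) and 33.8% in replicate 2 (22.6 to 46.6). On annotated models alone the log2 ratio of Bin1 was −0.51, against 0.75 on all its reads.

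**Figure D4:**
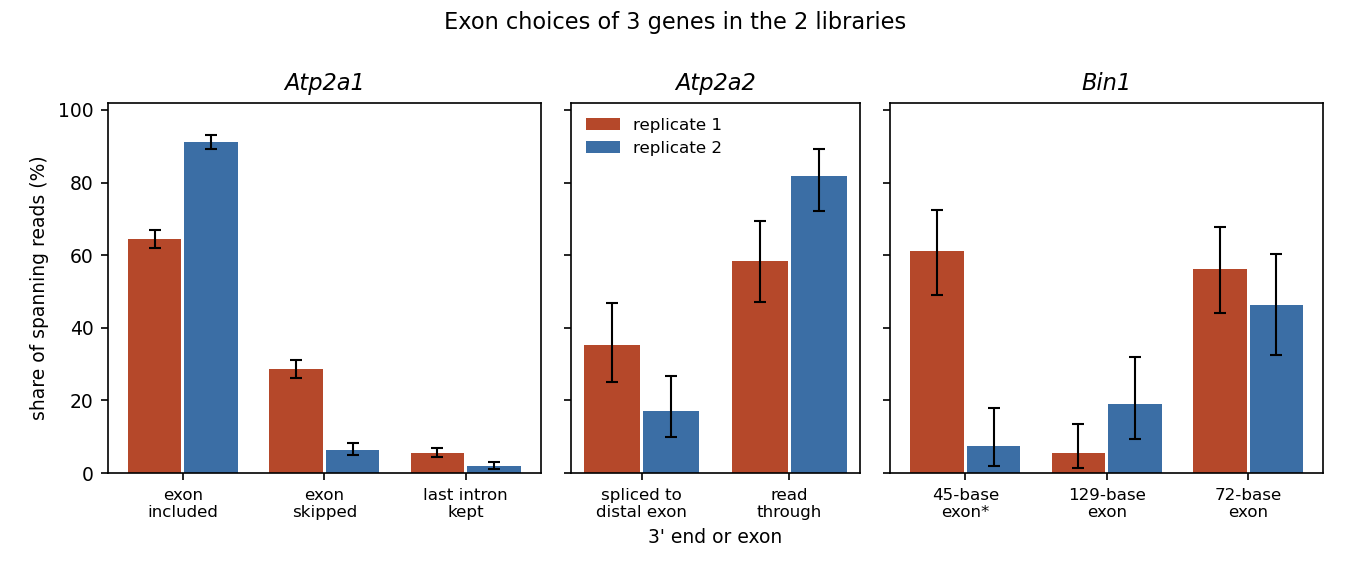
Share of spanning reads (%) with each 3' end of Atp2a1 and Atp2a2 and with each of 3 internal exons of Bin1, in replicate 1 (red, left bars) and replicate 2 (blue, right bars), with Clopper-Pearson intervals as error bars. The asterisk marks the unannotated exon, which was in 61.1% of reads in replicate 1 and 7.41% in replicate 2.

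The share of the main transcript was tested in all genes with 50 or more reads in each library, by a two-sided Fisher's exact test that compares the libraries, not conditions. Of 2162 genes, 1.80% (39) differed at an adjusted p below 0.05 (Benjamini-Hochberg) and by at least 10 percentage points. Of the set, 5 genes had enough reads and 3 of them differed. They were proposed with earlier results of these data in view, so their number, p-values and ranks are not independent evidence. The test takes reads as its units and covers counting error only. The main Atp2a1 model held 58.4% of the gene's reads in replicate 1 and 84.1% in replicate 2 (Fisher's exact test, adjusted p = 1.7e-36). By the same exact test the 20-exon transcript of Atp2a2 held 33.0% in replicate 1 and 67.0% in replicate 2 (adjusted p = 0.00138), and the 13-exon transcript of Bin1 held 11.9% in replicate 1 against 35.4% in replicate 2 (adjusted p = 0.0432). In size these differences ranked 8, 4 and 11 among the 2162 genes, whose median absolute difference was 3.95 points. The shares are of all reads of a gene, so shortened reads count against the main transcript. Atp2a2 reads from the first to the last exon made up 78.4% in replicate 1 and 89.0% in replicate 2. Among reads that spanned its 3' choice, the read-through share differed by −23.3 points (−36.0 to −9.57). The part of shortened reads in the Atp2a2 difference was not tested.

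The exact test no longer called Bin1 with 20 or more reads asked of each library (adjusted p = 0.087) and with spliced models alone (adjusted p = 0.092). Casq1 and Ckm did not pass the test. The main transcript of Casq1 held 88.0% of its reads in replicate 1 and 88.4% in replicate 2 (exact test, adjusted p = 1.00), and that of Ckm held 91.8% in replicate 1 against 90.2% in replicate 2 (adjusted p = 0.769). Pvalb, below the minimum of reads, was led by a 5-exon transcript with 11 of 22 reads in replicate 1 and 25 of 36 in replicate 2. Its annotated 4-exon transcript had 5 reads in each.

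The relatives of the set were read far less often than its leading members. Of the 7 other calcium pumps, Atp2c1, a pump of the Golgi, had 60.7 CPM in replicate 1 against 76.4 CPM in replicate 2. The remaining SERCA gene, Atp2a3, had 6 reads in replicate 1 against 5 in replicate 2, each of the 4 plasma membrane pumps (Atp2b1 to Atp2b4) had 5 or fewer reads in a library, and Atp2c2 had 0 in both. Neither of the pumps with 10 or more reads summed was 2-fold apart. Among small SERCA regulators other than Sln, Mrln (myoregulin) had 4 reads in replicate 1 and 2 in replicate 2, and Pln (phospholamban) had 0 in replicate 1 against 1 in replicate 2. Ryr2, the release channel of heart, had 1 read in replicate 1 against 0 in replicate 2, and Ryr3 had 0 in both.

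Partners of the release channel were mixed. Of the 13 release and triad genes with 10 or more reads summed, 5 were at least 2-fold higher in replicate 1 and 0 in replicate 2 (median log2 ratio 0.58). Fkbp1a, which binds the ryanodine receptor and is made in most cells, had 361 CPM in replicate 1 against 446 CPM in replicate 2. Tmem38a, a potassium channel of the reticulum, had 131 CPM in replicate 1 against 53.1 CPM in replicate 2. Asph, whose locus also encodes the junctional protein junctin, had 55.6 CPM in replicate 1 against 54.4 CPM in replicate 2. Trdn, which anchors calsequestrin near the ryanodine receptor, had 65.7 CPM in replicate 1 against 29.8 CPM in replicate 2, and Cacna1s, the voltage sensor of skeletal muscle, had 32.0 CPM in replicate 1 against 5.18 CPM in replicate 2. Itpr2 and Jsrp1 were the others past 2-fold, and the interval of the Jsrp1 ratio included equality (0.983 to 7.62).

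Among the 7 store and buffer genes with enough reads, 3 were at least 2-fold higher in replicate 1 and 1 in replicate 2 (median log2 ratio 0.24). Casq2, the calsequestrin of heart and slow fibres, had 49 reads (82.6 CPM) in replicate 1 against 5 reads (6.48 CPM) in replicate 2, a ratio of 12.8 (5.11 to 41.0). This was above the ratio of 2.01 for its relative Casq1. S100a1, a calcium sensor, had 256 CPM in replicate 1 against 374 CPM in replicate 2. Calu, a reticulum protein, had 175 CPM in replicate 1 against 149 CPM in replicate 2. Srl (sarcalumenin), a calcium-binding protein of the store, had 179 CPM in replicate 1 against 71.2 CPM in replicate 2, a ratio of 2.51 (1.79 to 3.54). Hrc, a histidine-rich protein of the store and the remaining gene past 2-fold in replicate 1, had 64.1 CPM in replicate 1 against 10.4 CPM in replicate 2. Of the 6 tubule and entry genes with enough reads, 0 were at least 2-fold higher in replicate 1 and 1 in replicate 2. That gene was Stim2, with 5 reads in replicate 1 against 15 in replicate 2 and a ratio interval that included equality (0.123 to 1.26). The median log2 ratio of the 6 genes was −0.10. The 3 with most reads were Dnm2, a dynamin, with 160.2 CPM in replicate 1 against 153 CPM in replicate 2, Dysf, a membrane repair protein, with 40.5 CPM in replicate 1 against 28.5 CPM in replicate 2, and Mtm1, a phosphoinositide phosphatase, with 30.3 CPM in replicate 1 against 24.6 CPM in replicate 2.

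The creatine system was mixed too. Ckmt2, the mitochondrial creatine kinase of muscle, had 82 reads (138 CPM) in replicate 1 against 9 reads (11.7 CPM) in replicate 2, a ratio of 11.9 (5.95 to 26.9), against 1.91 for Ckm. Ckb, the form of brain and many other tissues, had 91.0 CPM in replicate 1 against 97.1 CPM in replicate 2. Gamt, an enzyme of creatine synthesis, had 164 CPM in replicate 1 against 146 CPM in replicate 2. The 6 genes of the list had a median log2 ratio of 0.04, with 1 of them at least 2-fold higher in replicate 1 and 2 in replicate 2.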

How the data were processed

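The values are counts of long reads per transcript model, as the authors deposited them for each library, not normalized, with a gene model annotation beside them. Exon number and length of each model come from the same deposited tables (other numeric columns). Per the labels and the file headers the assembly is mm10, and the annotation source column names TALON. The annotation used beside it was GENCODE M21. For the platform, the aligner and tool versions, nothing is given in the sources used here.

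Unannotated models carry identifiers of their own in each library, so structures were matched by introns. Counts were summed over the models of a gene. Spike-in reads (13512 in replicate 1 and 16500 in replicate 2) were left out of totals, and CPM was computed from the rest. Log2 ratios carry 0.5 added reads. Count intervals are exact Poisson, ratio intervals exact conditional binomial, shares Clopper-Pearson and differences of shares Newcombe. Splice boundaries within 10 bases were treated as equal at 3' ends. Model ends need not be the ends of each read. The Fisher test was tested on simulated data. Scipy 1.17.1 and statsmodels 0.14.6 were used.

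The 8 genes and all lists were chosen with earlier results of these data known. Genes named from a list are its 3 with most reads or relatives of a member, and further genes past 2-fold or at 0 are named after their values were seen. Strit1, Arln and Erln have no entry of that symbol in the annotation and were not used. Levels have no replicate test, since both libraries belong to 1 group.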

Additional observations from a re-analysis of the deposited data

How the results depend on the processing

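No paired analysis was possible because the libraries form 1 group with no second condition. A ratio between libraries has no value with a library left out. With muscle reads as the total, the log2 ratios of Atp2a1 (−0.50), Casq1 (−0.61), Ckm (−0.68), Bin1 (−0.87) and Atp2a2 (−1.29) changed sign, and those of Sln (3.50), Pvalb (−1.94) and Ryr1 (1.32) moved beyond their counting intervals. The change of total moved every member by the same amount, and the cause of the difference in muscle reads was not tested. With steroidogenic reads as the total, Atp2a1 gave 1.42, and Ckm (1.24) and Bin1 (1.05) passed 2-fold. Ckm also passed it on annotated models alone (1.08) and on spliced models alone (1.01), and Bin1 gave −0.51 on annotated models alone. Including spike-ins, taking spliced models alone or adding 1 read left every member within its interval. The share of genes at least 2-fold higher was 21.7% (replicate 1) and 14.3% (replicate 2) with no read minimum, and 3.98% and 1.39% at 3-fold. An alternative chosen after seeing the data, counting kept introns as included, gave 70.8% inclusion of the Atp2a1 exon in replicate 1 and 93.5% in replicate 2. Exact splice boundaries, also chosen then, and models that hold the first exon kept the 3' end shares within their intervals, as did each further alternative for Atp2a2 and, for the 45-base exon of Bin1, full-length models (chosen after seeing the data). Annotated models alone left too few reads for a value of Ryr1 or of the Atp2a1 exon. With incomplete splice matches counted as annotated, the unannotated shares in replicate 1 and replicate 2 were 87.8 and 92.5% for Atp2a1, 12.5 and 6.59% for Atp2a2, 0 and 0% for Pvalb, 19.2 and 0% for Ryr1, 0.443 and 0.521% for Ckm, and 56.0 and 13.8% for Bin1. These shares use each library's own classes, which differ for the same structure of Atp2a1 and of Atp2a2, and incomplete matches include the 3903-base Atp2a1 model that keeps an intron, so these pairs are not a comparison between libraries. Genes that differed in main transcript share numbered 21 with 20 reads asked, 79 with no minimum difference and 14 on spliced models alone, against 39. Depth limits Sln and Ryr1, with 3 and 4 reads in replicate 2.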

Other observations

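Some genes of the lists were higher in replicate 2. Calb1, a calcium buffer known from kidney tubules and neurons, had 0 reads in replicate 1 and 20 reads (25.9 CPM) in replicate 2. Gatm, the enzyme that opens creatine synthesis and is abundant in kidney, had 13.5 CPM in replicate 1 against 84.2 CPM in replicate 2, a ratio of 0.160 (0.0664 to 0.335). Ckmt1, the widespread mitochondrial creatine kinase, had 5.06 CPM in replicate 1 against 16.8 CPM in replicate 2, with an interval of the ratio that included equality (0.0549 to 1.09). All 6 kidney genes had 0 reads in replicate 1 and 504 reads together in replicate 2, from 20 for Slc12a1 to 200 for Slc34a1. The part of kidney RNA in these values was not tested.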
